A study of Rattus norvegicus with 21 samples.

Results

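The genes described here encode the subunits of the AMPA and NMDA receptors, together with Cacng2, a transmembrane auxiliary subunit of AMPA receptors. They were listed by name as Gria1, Gria2, Gria3, Gria4, Cacng2, Grin1, Grin2a, Grin2b, Grin2c and Grin2d, 10 genes of the 13317 symbols with a probe on the array. Of the 10, 9 had a probe under that name, 1 probe each, and no probe of the platform annotation used here was assigned to Gria1. Enough arrays detected 7 of them to enter the tests, among 8211 features in all.

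The measurements came from the dentate gyrus of Wistar rats that had received pilocarpine, a muscarinic agonist used to produce chronic epilepsy. Slices of hippocampus had been recorded in vitro, and areas were taken where the field potential showed fast ripples, very fast oscillations of epileptic tissue (FR areas), or did not (nonFR areas). All 6 rats (P91, B9, B1, B3, B13 and B10) were pilocarpine-treated, so no untreated tissue enters any comparison, and the labels give neither sex, age nor time after treatment. RNA of 10 FR and 11 nonFR areas was hybridised to Illumina rat beadchips, 1 array per area. In 10 of 11 slices both areas were measured, and the remaining slice, from B9, gave a nonFR area alone.

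AMPA and NMDA receptors are tetrameric cation channels opened by glutamate. AMPA receptors carry the fast part of excitatory transmission, and their GluA2 subunit, made from Gria2, keeps calcium out of the channel once its transcript has been edited. NMDA receptors need the GluN1 subunit, made from Grin1, and take their gating and magnesium block from the GluN2 subunits of Grin2a, Grin2b, Grin2c and Grin2d. Granule cells of the dentate gyrus receive their main excitatory input from the entorhinal cortex through these receptors.

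Mean probe signal of the arrays ran from 84.2 to 369.8, and probes detected at a detection p below 0.01 from 5648 to 9525. The lowest of both came from the nonFR area of slice 2 of B10. The 2 arrays of that slice stood further apart than those of any other slice, with a median absolute difference of 0.37 log2 over all tested features against 0.11 to 0.26 in the other 9. Calb1, the calbindin of granule cells, was detected on 21 arrays. Prox1, the granule cell transcription factor, was detected on 15, with log2 values from 5.76 to 6.13. These lay below the medians of the tested features on each array, 6.50 to 6.52. Gfap of astrocytes, Gad1 of interneurons and Aif1 of microglia were detected on 21 arrays each, so the areas held several cell types. In such tissue fewer cells of a type and less RNA per cell cannot be told apart.

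No member of the family differed between FR and nonFR areas past the threshold. In the limma fit with the rat as a block, 0 of 7 members had an adjusted p below 0.05, as had 0 of 8211 features (0%), and the adjusted p was 0.9996 for each member. At an unadjusted p below 0.05 the count was 0 of 7 members against 28 of all features (0.341%). That share lies below the 0.05 that such a threshold passes on average where nothing differs. The p-values of this fit thus ran high for features at large, and an absence of calls does not show equal levels. Of the members, 4 had a higher and 3 a lower mean in FR areas, with a median difference of 0.043 log2 against 0.0035 over all features. None of the 7 had the same sign in all 6 rats, which 1.27% of features had. For 5 of the 7 the 95% interval of the difference lay within 1 log2 unit of 0, a property of 96.6% of features. The 2 exceptions were Gria2 and Cacng2. These intervals treat the areas of a rat as separate replicates. Differences in level between rats are not in them. Variation of the FR minus nonFR difference between rats enters only as part of the spread between areas.

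**Figure D1:**
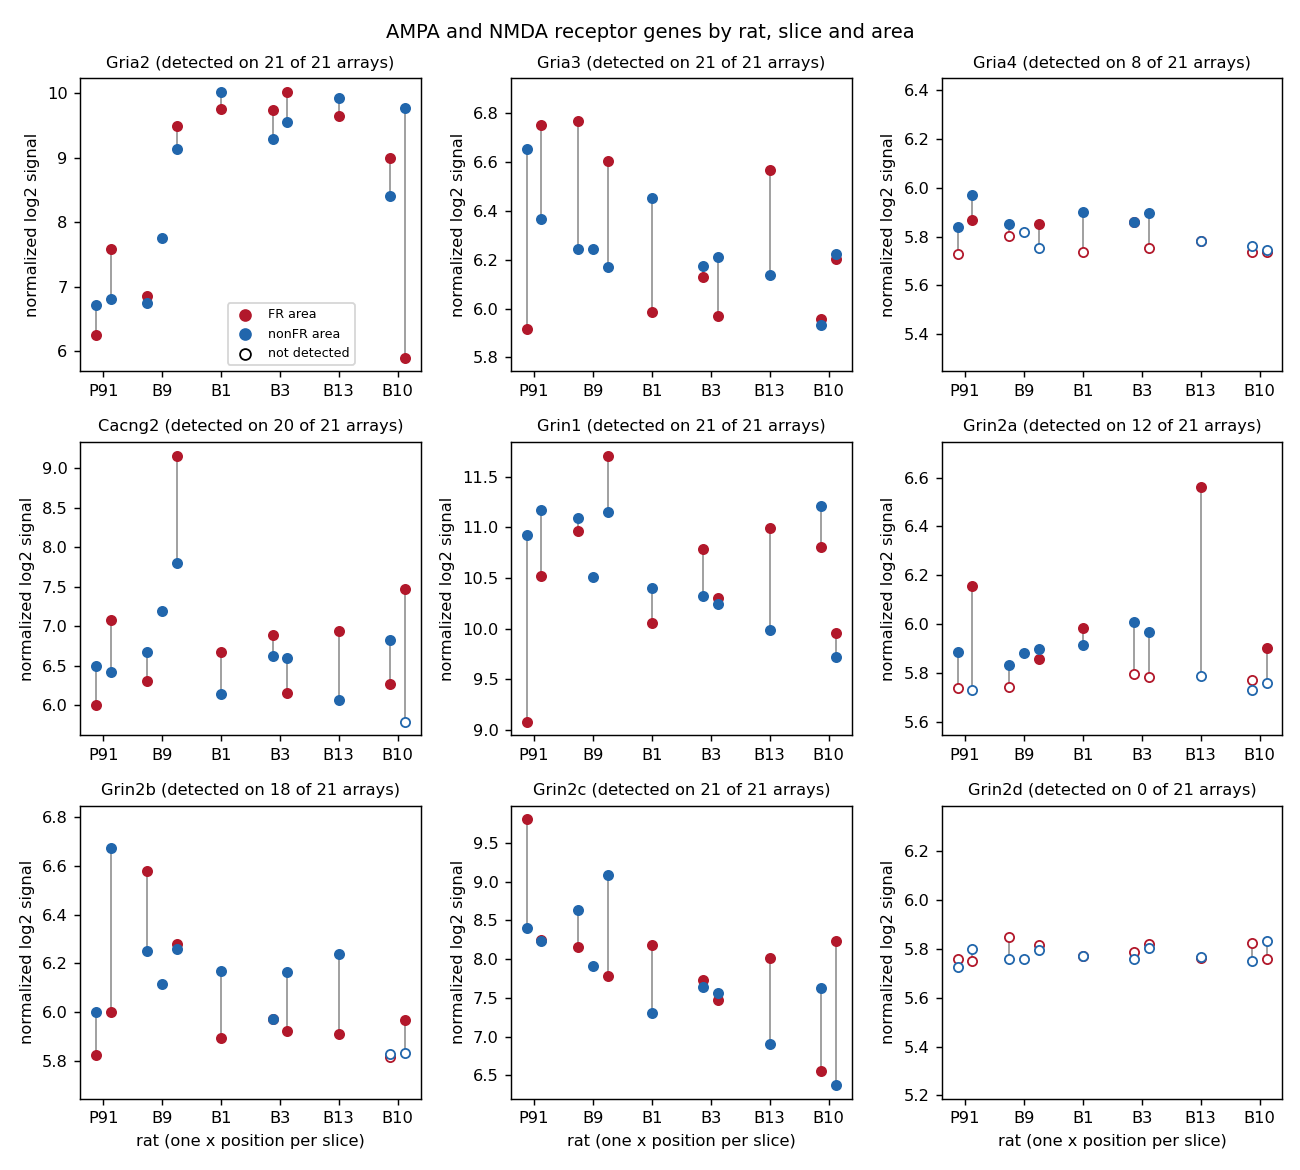
Normalized log2 signal (vertical axis, its own range in each panel) of the 9 receptor genes with a probe, by rat (horizontal axis, 1 position per slice). Red points are FR areas and blue points nonFR areas, open points were not detected, and a grey line joins both areas of a slice. Gria2 is low in P91, in slices 1 and 2 of B9 and in the FR area of slice 2 of B10. It lies between 9.29 and 10.02 in B1, B3 and B13, and Grin2d is open throughout.

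Gria2 (probe ILMN_1356417, NM_017261) was detected on all 21 arrays and varied more than any other member. In FR areas its log2 values ran from 5.90 in slice 2 of B10, with a median of 9.25, to 10.01 in slice 2 of B3. In nonFR areas they ran from 6.71 in slice 1 of P91, with a median of 9.13, to 10.02 in B1. The groups overlapped over most of their span, and the FR area of B10 slice 2 was the lowest array of all. The fitted difference was -0.18 log2 in FR areas (SE 0.45, 95% interval -1.14 to 0.77, limma p = 0.692, adjusted p = 0.9996). By rat it was 0.16 in P91, 0.30 in B9, -0.27 in B1, 0.45 in B3, -0.28 in B13 and -1.64 in B10, higher in 3 rats and lower in 3.

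Slice 2 of B10 set the sign of that mean. There the signal was 38.4 in the FR area (5.90 log2) and 342.2 in the nonFR area (9.77 log2), a difference of -3.87, while the other 9 slices lay between -0.45 and 0.78. In this slice 28 of 8211 features were at least as far apart as Gria2, and 1802 differed by more than 1 log2 unit. Calb1 was also lower in that FR area, at 9.32 against 12.22 log2, while the granule cell marker list as a whole, with 8 of its 14 genes tested, had a mean of 6.94 against 7.08. Gad1 of interneurons was further apart still, at 9.01 in the FR and 12.20 in the nonFR area, and the interneuron list (8 of 12 genes tested) had 6.49 against 6.93. Without that slice the Gria2 difference was 0.21, and without the rat it was 0.16. The parts of the arrays' dimness and of granule cell or interneuron content in the Gria2 value were not tested.

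Gria3 (ILMN_1368538, NM_032990), which encodes GluA3, was detected on all arrays. Its log2 values ran from 5.92 in slice 1 of P91, with a median of 6.17, to 6.77 in slice 1 of B9 in FR areas. In nonFR areas they ran from 5.93 in slice 1 of B10, with a median of 6.22, to 6.65 in slice 1 of P91. The groups overlapped throughout, and slice 1 of P91 held both the lowest FR and the highest nonFR value. The difference was 0.043 log2 (SE 0.11, 95% interval -0.20 to 0.29, limma p = 0.712, adjusted p = 0.9996). It was highest in B9 and B13, at 0.47 and 0.43, and lowest in B1 at -0.47.

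Gria4 (ILMN_1371769, NM_017263), the gene of GluA4, lay near background and was not tested with the others. It was detected on 8 arrays, 2 of 10 FR and 6 of 11 nonFR areas. In 5 slices the nonFR area alone passed detection, and in 1 slice the FR area alone. The area that passed was on the brighter array in 4 of those 5 slices, as in B1 with mean signals of 290.8 against 126.1, and also in the slice of the FR area, slice 3 of B9, with 369.8 against 168.9. The part of array brightness in these calls was not tested. Its signal stayed between 27.1 and 83.2, so these calls rest on small differences. Fitted without the detection filter, over 21722 features, it had -0.048 log2 in FR areas (SE 0.025, limma p = 0.0789, adjusted p 0.9994), with 4 rats lower and 2 higher.

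Cacng2 (ILMN_1372288, NM_053351) encodes stargazin, which brings AMPA receptors to the surface and holds them at synapses. It was detected in 10 of 10 FR and 10 of 11 nonFR areas. In FR areas it ran from 6.01 log2 in slice 1 of P91, with a median of 6.79, to 9.16 in slice 3 of B9. In nonFR areas it ran from 5.79 in slice 2 of B10, where it was not detected, with a median of 6.60, to 7.80 in slice 3 of B9. Slice 3 of B9 thus gave the highest value of both groups, and the rest overlapped. The fitted difference was 0.36 log2 (SE 0.30, 95% interval -0.29 to 1.01, limma p = 0.254, adjusted p = 0.9996). Without slice 2 of B10, where the nonFR area was below detection, it was 0.22.

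Of the 7 tested members, Cacng2 had the lowest p over rats. Its difference was higher in 5 of 6 rats, with 0.87 in B13, 0.56 in B10, 0.54 in B1, 0.51 in B9, 0.083 in P91 and -0.090 in B3. The mean over rats was 0.41 ± 0.35 (SD, n = 6), and the exact two-sided sign-flip test gave p = 0.0938, where 6 rats allow no p below 0.0313, and an adjusted p of 0.9993 over all features. The rat means hid opposite slices. In each of the 4 rats with a pair of complete slices, P91, B9, B3 and B10, the 2 slices had opposite signs, such as -0.56 and 1.68 in B10. Over all features the slices of a rat shared a sign in 1.74 of these 4 rats on average. The CA1 and CA3 pyramidal cell list (5 of 13 genes tested) had -0.14 in P91, 0.30 in B9, -0.58 in B1, -0.15 in B3, 0.59 in B13 and 0.26 in B10. In slice 3 of B9 it stood at 7.57 in the FR and 6.72 in the nonFR area. Its highest array was the FR area of slice 1 of B10, at 7.75, where Cacng2 had 6.27. The part of pyramidal cell content in the Cacng2 values was not tested.

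**Figure D2:**
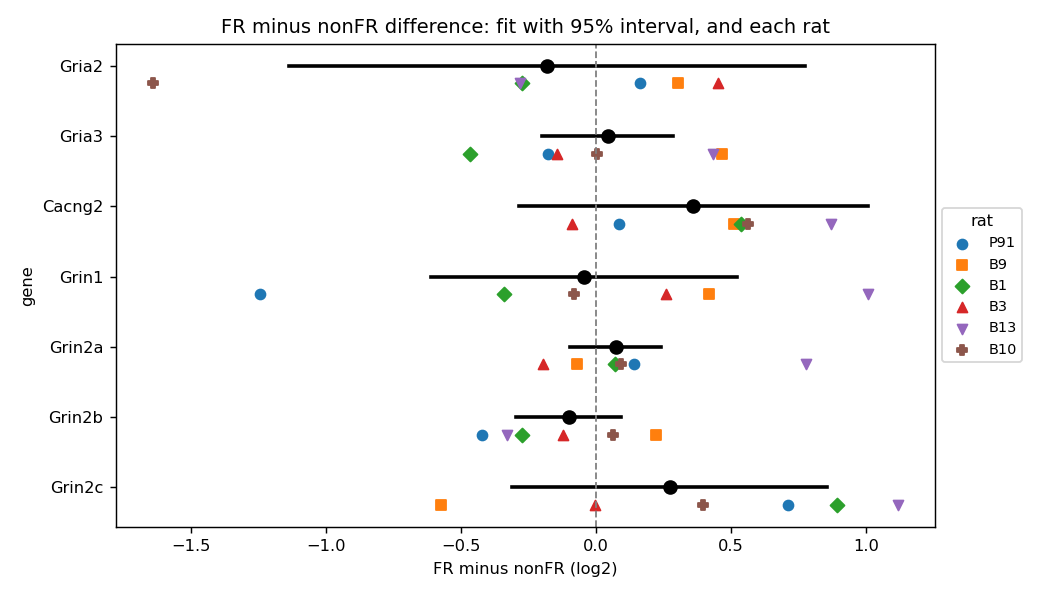
FR minus nonFR difference in log2 units (horizontal axis) for each of the 7 tested genes (vertical axis). Black points and bars are the limma fit with its 95% interval over 21 arrays, and coloured symbols below them are the 6 rats. Each bar crosses 0, and the symbols of each gene lie on both sides of 0.

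Grin1 (ILMN_1365529, NM_017010), the obligatory NMDA receptor subunit gene, was detected on all arrays. In FR areas it ran from 9.08 log2 in slice 1 of P91, with a median of 10.65, to 11.71 in slice 3 of B9. In nonFR areas it ran from 9.72 in slice 2 of B10, with a median of 10.51, to 11.21 in slice 1 of B10. The medians lay close, and the FR values spread wider on both sides. The difference was -0.045 log2 (SE 0.27, 95% interval -0.61 to 0.52, limma p = 0.867, adjusted p = 0.9996). It ran in opposite directions in P91 (-1.25, with both slices lower in FR, at -1.84 and -0.65) and in B13 (1.01). Without P91 the fitted difference was 0.24, and without B9 it was -0.19.

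Grin2a (ILMN_1376686, NM_012573), whose GluN2A subunit prevails at mature synapses, was detected on only 12 arrays, 5 FR and 7 nonFR. In FR areas it ran from 5.74 log2, with a median of 5.83, to 6.56 in B13. In nonFR areas it ran from 5.73, with a median of 5.88, to 6.01 in slice 1 of B3. Apart from the FR area of B13 and that of slice 3 of P91, at 6.16, the values lay between 5.73 and 6.01. The difference was 0.072 log2 (SE 0.080, 95% interval -0.098 to 0.24, limma p = 0.382, adjusted p = 0.9996). In B13 the signal was 151.4 in the FR area and 39.8, below detection, in the nonFR area. Without B13 the fitted difference was -0.0033.

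Grin2b (ILMN_1366396, NM_012574), whose GluN2B subunit closes slowly and prevails early in development, was detected on 18 arrays. In FR areas it ran from 5.82 log2 in slice 1 of B10, with a median of 5.94, to 6.58 in slice 1 of B9. In nonFR areas it ran from 5.83 in the same slice of B10, with a median of 6.17, to 6.67 in slice 3 of P91. Both areas of that slice of B10 were below detection, as was the nonFR area of slice 2 of B10. The nonFR median was the higher, but the groups overlapped over nearly their whole range. The difference was -0.10 log2 (SE 0.091, 95% interval -0.29 to 0.093, limma p = 0.286, adjusted p = 0.9996), lower in 4 of 6 rats and in 7 of 10 slices. Without P91 it was -0.018.

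Grin2c (ILMN_1358782, NM_012575), whose GluN2C subunit is best known from cerebellar granule cells and is also found in astrocytes, was detected on all arrays. In FR areas it ran from 6.56 log2 in slice 1 of B10, with a median of 8.08, to 9.81 in slice 1 of P91. In nonFR areas it ran from 6.37 in slice 2 of B10, with a median of 7.65, to 9.09 in slice 3 of B9. B10 thus gave the lowest values of both groups. The difference was 0.27 log2 (SE 0.27, 95% interval -0.31 to 0.85, limma p = 0.337, adjusted p = 0.9996), with 4 rats higher and 2 lower. Its size depended on single rats and slices, at 0.10 without slice 2 of B10, 0.16 without P91, 0.18 without B13 and 0.52 without B9.

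By the median over slices, both areas of a slice lay further apart in Grin2c than in the other 6 tested members. The size of the difference had a median of 0.98 log2 over 10 slices and exceeded 1 in 5 of them, a median at least as large as that of 98.6% of features. The signs were mixed, with 1.40 in slice 1 of P91, 1.12 in B13 and 1.86 in slice 2 of B10, but -1.30 in slice 3 of B9 and -1.07 in slice 1 of B10. The astrocyte marker list (8 of 10 genes tested) was higher by 0.61 in P91, 0.37 in B1, 0.13 in B3 and 0.40 in B13, and had -0.46 in B9 and -0.48 in B10. Grin2c had 0.71, 0.89, -0.0055, 1.12, -0.57 and 0.39 in these rats in the same order. The signs matched in P91, B1, B13 and B9, but the astrocyte list was not alone in this. The oligodendrocyte, oligodendrocyte precursor, microglia and endothelial (4 of 10 genes tested) lists also had the sign of Grin2c in these rats. In B10 the precursor (0.057) and endothelial (0.11) lists shared its sign as well, and the oligodendrocyte (-0.16) and microglia (-0.20) lists did not. In B3 all of these lists lay above 0. The parts of these cell types in the Grin2c values were not tested.

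**Figure D3:**
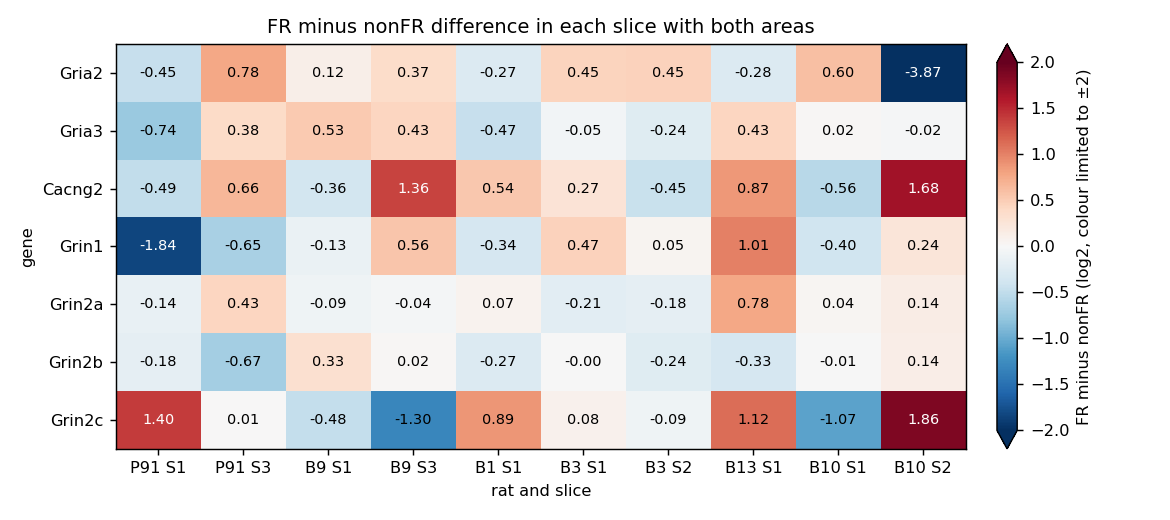
FR minus nonFR difference in log2 units for the 7 tested genes (rows) in the 10 slices with both areas (columns), red where FR was higher and blue where nonFR was higher. The colour stops at 2 in either direction. Gria2 in slice 2 of B10 reads -3.87, and Grin2c passes 1 in either direction in 5 slices.

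Grin2d (ILMN_1361760, NM_022797), the gene of GluN2D, was detected on 0 of 21 arrays. Its signal lay between 29.4 and 64.2 and its log2 values between 5.72 and 5.85, so the array gave no measured level and no fold for it. Among NMDA subunits outside the list, Grin3b was tested and had 0.019 log2 in FR areas (SE 0.023), with means of 5.86 and 5.84. These means lie near background, where the offset compresses differences, so the small SE is no sign of a well-measured level.

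Balances between subunits that can replace each other varied in sign between rats, and these are given as descriptions without a test. The change of Gria2 relative to Gria3 was -0.23 ± 0.83 log2 in FR areas over rats (SD, n = 6), with 3 rats above 0, and ran from -1.64 in B10 to 0.60 in B3. Without B10 the mean was 0.050. The change of Grin2a relative to Grin2b was 0.28 ± 0.51 log2 (SD, n = 6), with 4 rats above 0 and the extremes at -0.29 in B9 and 1.11 in B13. Grin2a was below detection on 9 of the 21 arrays, the nonFR area of B13 among them. Grin2b was below detection in both areas of slice 1 of B10 and in the nonFR area of its slice 2. This balance thus rests in part on values at background, and without B13 its mean was 0.11. The spread exceeded the mean in both pairs. Gria2 against Gria1 could not be formed without a probe for Gria1.

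Whether the FR minus nonFR difference itself varied from rat to rat was tested with a rat by area interaction. None of the 7 members passed (0 of 7, against 2 of all features, 0.0244%). At an unadjusted p below 0.05 there was 1 member, Grin2a (limma F test, p = 0.0169, adjusted p = 0.881), against 4.7% of features. The value of 0.78 in B13 stood apart from 0.14 in the next rat. In that rat the granule cell list had -0.94, the oligodendrocyte list (9 of 13 genes tested) 1.15 and the microglia list (10 of 14 genes tested) 0.89. The oligodendrocyte precursor list had 1.12, the endothelial list 0.80 and the CA1 and CA3 pyramidal cell list 0.59. Each of these was the furthest from 0 of the 6 rats, and the mossy cell, interneuron and astrocyte lists were not. The part of these cell types in the Grin2a value was not tested. Without B13 the interaction of Grin2a had an adjusted p of 0.99997.

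Levels of Gria2 differed between rats more widely than those of the other members, near the threshold of the test. The rat means, from low to high, were 6.84 in P91, 7.999 in B9, 8.27 in B10, 9.65 in B3, 9.79 in B13 and 9.89 in B1. The 4 arrays of P91 ran from 6.26 to 7.59, below all 8 arrays of B3, B13 and B1, which ran from 9.29 to 10.02. The 3 highest rats overlapped each other, and B9 (6.75 to 9.50) and B10 (5.90 to 9.77) overlapped both ends. In B9 the level differed by slice, at 6.86 (FR) and 6.75 (nonFR) in slice 1 and 7.75 (nonFR) in slice 2. Slice 3 of B9 had 9.50 (FR) and 9.13 (nonFR). The SD of the 6 rat means was 1.23 log2, at least as large as in 99.7% of features, and the SD within rats was 1.04, at least as large as in 99.0%. The limma F test over rats, which takes each area as a replicate, gave p = 0.00791 and an adjusted p of 0.0551. With the authors' processed values the adjusted p was 0.0423, without slice 2 of B10 it was 0.0120 and without P91 0.251, so the call depends on these choices.

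The deposited signal of Gria2 was also low in P91, where the arrays were bright. It ran from 144.9 to 419.6 there, at a mean array signal of 254.2 in P91, and from 465.5 to 1980.6 in B1, B3 and B13, at mean array signals of 208.4, 168.7 and 186.4. The granule cell list had rat means of 6.702 in P91, 7.01 in B9, 6.63 in B10, 7.12 in B3, 6.83 in B13 and 7.19 in B1. Of its defining markers, Trpc6 and Lct did not pass the filter. Calb1 ran from 8.85 to 10.22 in P91 and from 11.33 to 11.71 in B3 and B1. It stood at 9.05 and 12.37 in B13, and ran from 9.23 to 10.36 in B9 and from 7.34 to 12.22 in B10. Gad1 had rat means of 10.39 in P91, 10.10 in B9, 10.93 in B10, 11.17 in B3, 11.54 in B13 and 11.48 in B1. P91, B9 and B10 were thus below B3, B13 and B1, as in Gria2. The interneuron list had 6.98, 6.79, 6.99, 6.79, 7.01 and 6.74 in these rats. P91 had the highest of the 6 rat means in the microglia (8.23), astrocyte (10.50), oligodendrocyte (7.88) and oligodendrocyte precursor (8.14, 4 of 7 genes tested) lists, and B10, also low in Gria2, the lowest in the microglia (6.83), astrocyte (9.67) and precursor (7.08) lists. The part of cell content in the Gria2 levels was not tested. The labels name no chip or scan, so a rat and any batch it was processed in cannot be told apart.

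No member passed the test between rats at the settings used here, 0 of 7 against 1072 of all features (13.1%). At an unadjusted p below 0.05 there were 2, Gria2 and Grin2c (p = 0.0379, adjusted p = 0.128), against 33.2% of features. Grin2c had rat means of 8.67 in P91, 8.31 in B9, 7.74 in B1, 7.60 in B3, 7.46 in B13 and 7.20 in B10. The astrocyte list had rat means of 10.50, 9.93, 10.36, 10.16, 10.10 and 9.67 in these rats, with P91 highest and B10 lowest in both. The microglia and oligodendrocyte precursor lists had the same highest and lowest rat, and the precursor list ranked the rats in the order of Grin2c. The parts of these cell types in the Grin2c levels were not tested. With each array scaled to the same median in place of quantile normalization, Grin2c (adjusted p = 0.0233) and Grin2b (0.0177) passed and Gria2 did not (0.0597), and the share of all features that passed was 27.4%. Grin1 and Cacng2 were highest in B9, at rat means of 11.09 and 7.43, with F-test adjusted p of 0.597 and 0.427.

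**Figure D4:**
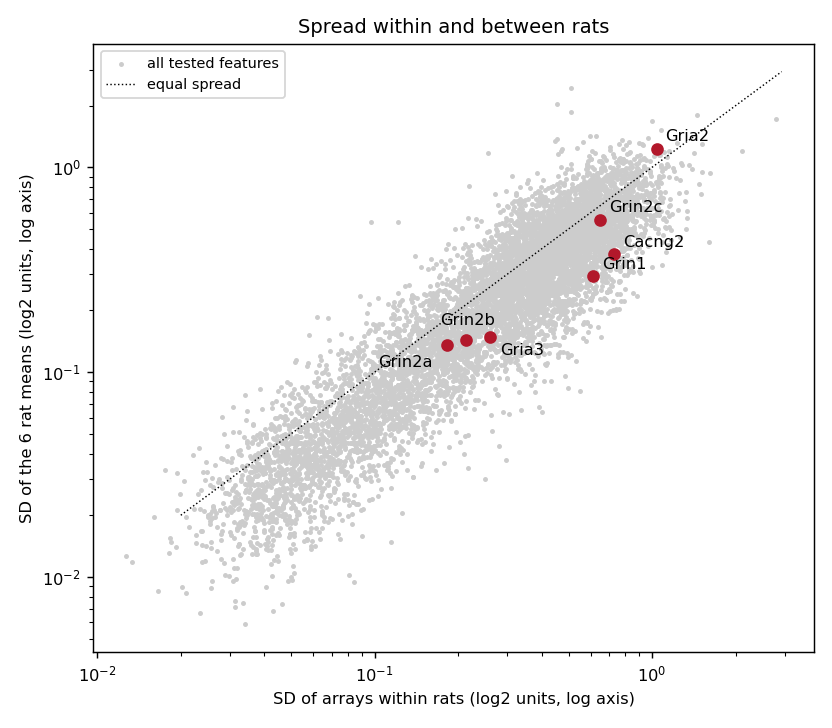
SD of the 6 rat means (vertical axis) against the SD of arrays within rats (horizontal axis), both in log2 units on log axes, for all 8211 tested features (grey) and the 7 tested receptor genes (red). The dotted line marks equal spread. Gria2 lies at 1.23 and 1.04, in the upper right corner of the cloud, and Grin2a at 0.14 and 0.18.

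Of the 21 pairs of tested members, the most alike over the 21 arrays were Cacng2 and Grin1, with a Pearson r of 0.56. After each rat's mean was subtracted this pair had 0.41, below Gria3 with Grin2a (0.46) and Cacng2 with Grin2a (0.45). Gria2 and Grin2c were the least alike on both scales, at -0.62 over the arrays and -0.54 with rat means subtracted. These values describe arrays that share rats and a common normalization, and they carry no test.

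The likeness of other genes to each member was taken as Pearson r over the 21 arrays. The 99th percentile of r over all features lay between 0.56 and 0.78 by member, and between 0.58 and 0.77 with rat means subtracted. Gria2 was most like Bclaf1 (r = 0.88) and Mycbp2 (0.87), a ubiquitin ligase of axons. Gria3 was most like Syn2 (0.82), a synaptic vesicle phosphoprotein, and Thrb (0.74), a thyroid hormone receptor. Grin1 was most like Sez6l2 (0.91) and Slit1 (0.87), an axon guidance ligand, and Cacng2 like Agtrap (0.86) and Kcnk12 (0.86), a potassium channel subunit. Grin2a was most like Epha5 (0.91), an ephrin receptor, and RT1-Ba (0.83), an MHC class II gene. Grin2a was detected on only 12 arrays, and its value of 6.56 in the FR area of B13 stood apart, so its likeness leans on that array. Grin2b was most like Lzts1 (0.87) and Rhobtb2 (0.85), and Grin2c like Lgi4 (0.88) and Fuca1 (0.86), a lysosomal enzyme. With rat means subtracted, Bclaf1 (0.78), Syn2 (0.84), Sez6l2 (0.91) and Epha5 (0.89) stayed among the 2 most alike of their member. The other places went to Zfp347 (0.79) for Gria2, Tp53i11 (0.78) for Gria3, Galnt9 (0.88) and Cpne4 (0.88) for Cacng2, Lhfpl5 (0.92) for Grin1, Klf6 (0.90) for Grin2a, Cars1 (0.89) and Phf12 (0.89) for Grin2b, and Appl2 (0.90) and Fam32a (0.87) for Grin2c. Cpne4 is on the CA1 and CA3 pyramidal cell marker list.

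Genes that handle these receptors were also without a call between FR and nonFR areas. Of all 8211 features, 4299 were higher and 3912 lower in FR areas (median 0.0035 log2). Of 29 genes for AMPA receptor auxiliary subunits and trafficking, 12 were tested, and 0 passed, with 2 higher and 10 lower in FR areas (median -0.050 log2). Genes of a list share arrays and rats, so such a split is no test. Abhd6, a lipase that restrains AMPA receptor surface delivery, had -0.23 log2 (SE 0.11, limma p = 0.0497, adjusted p = 0.9996). Porcn, an acyltransferase reported in AMPA receptor complexes, had 0.039 (SE 0.23). Without P91 the same list split 5 higher and 6 lower, and without B13 or without the dimmest array 0 and 12. Of 16 other NMDA subunit and modulator genes 7 were tested, 3 higher and 4 lower (median -0.022), among them Ptpn5, a tyrosine phosphatase of GluN2B, at -0.19 (SE 0.30), and the kinase gene Src at 0.040 (SE 0.0996).

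Scaffolds and signalling enzymes of the postsynaptic density held no call either. Of 25 scaffold genes 10 were tested, 3 higher and 7 lower with 0 past the threshold (median -0.036). Dlgap4 had 0.31 log2 (SE 0.26) and Dlg1, which encodes SAP97, -0.028 (SE 0.028), while Cnksr2 had -0.26 (SE 0.28) and Nefl -0.15 (SE 0.17). Dlg1 lay near background, with means of 5.85 in FR and 5.88 in nonFR areas. Of 20 kinase and phosphatase genes 16 were tested, 9 higher and 7 lower with 0 past the threshold (median 0.036). That split turned to 6 higher and 10 lower (median -0.086) without B10, and to 7 and 9 without its slice 2 (median -0.056), without the dimmest array (-0.041) or without B13 (-0.019). Prkacb, a catalytic subunit of protein kinase A, had -0.27 (SE 0.15), and Camk2g 0.12 (SE 0.11). Of the 3 RNA editing enzymes only Adar was tested, at 0.0031 (SE 0.037), with dim means of 5.94 in FR and 5.93 in nonFR areas. Adarb1, which edits the Gria2 transcript, did not pass the detection filter.

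Between rats, 5 of these partner genes passed, a smaller share of those tested than the 13.1% of all features. Rat B9 was the highest in 4 of the 5, and how often it was so among all features that passed was not counted. Cnih2, an AMPA receptor auxiliary subunit, had rat means from 6.03 in B13 to 7.61 in B9 (limma F test, adjusted p = 0.00520). Pick1, which binds the GluA2 tail, ran from 7.67 in B13 to 9.16 in B9 (adjusted p = 0.0222), and Abhd6 from 8.05 in B10 to 9.11 in B1 (adjusted p = 0.0263). Src and Fyn, tyrosine kinases that act on GluN2 subunits, ran from 5.90 and 5.84 in B13 to 6.62 and 6.54 in B9 (adjusted p = 0.0274 and 0.0302). The calls were 3 of 12 AMPA partners, 2 of 7 NMDA partners, 0 of 10 scaffolds, 0 of 16 kinases and phosphatases and 0 of 1 editing enzyme, against 13.1% of all features. The count for kinases and phosphatases was not stable, at 5 of 16 without slice 2 of B10 (21.6% of all features), 4 without B10 (21.2%), 4 with median scaling (27.4%), 2 without the dimmest array (18.4%) and 1 without B1 (16.4%) or B13 (10.5%). Src also missed the threshold without P91 (0.0754) or B3 (0.0603), Fyn without B3 (0.0752), and Abhd6 without B1 (0.0532) or B3 (0.0712). Without B9 none of the 5 passed (adjusted p 0.0924 to 0.757), and the share of all features was 2.26%.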

How the data were processed

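Per the file headers, the deposited table pairs each probe's mean signal on an array with its detection p-value. The signal was taken as intensity on a linear scale, and no background correction or normalization was seen in the deposited values. A second deposited table holds the authors' processed log2 values (lumi 2.2, per the submitters' processing notes, with the steps and log base not given in the sources used here), used as an alternative only. Of 22523 probes, 720 were 0 in every column and were dropped. The header repeats one name for the detection columns, and each detection p-value column, deposited beside a signal, correlated most strongly with that signal (Spearman -0.99 to -0.95).

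Signals were background-corrected by normexp with controls inferred from the detection p (limma 3.58.1, R 4.3.3, offset 16), put on a log2 scale and quantile-normalized. The offset compresses differences of dim probes. A probe entered the tests if 10 or more arrays detected it (p below 0.01), and a symbol with several such probes took its brightest. Symbols came from the platform annotation, with 0 changed by RefSeq gene numbers. limma (lmFit, eBayes, Benjamini-Hochberg over 8211 features, threshold 0.05) tested FR against nonFR with the rat as a block, rats with area as a covariate, and their interaction. Samples are areas of 6 rats, so p-values of these fits measure spread between areas. The pairing rests on the labels, and deviations from group means correlated by 0.36 within slices (10 pairs), 0.35 between slices of a rat and -0.11 between rats. The exact sign-flip test over rats was adjusted over all features. The fits were tested on simulated data.

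The members, partner lists and tests were chosen with earlier results of these data known. Named were the members, the 2 named genes most like each by Pearson r, from each list the gene with the lowest p in each direction and the 2 lowest between rats, and any list gene past the threshold where 5 or fewer were. Alternatives covered normalization, filter, block, weights and arrays or rats left out. Precision is limited by the number of arrays.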

Additional observations from a re-analysis of the deposited data

Results flagged for a closer look

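Of 36 sets of values examined (for each of the 9 genes with a probe, its 10 FR arrays, 6 rat means, 6 differences by rat and 10 differences by slice), 8 had an extreme value set far apart from the rest, and with chance flagging about 1 set in 20, some 1.8 would be found among independent sets. These sets have arrays and rats in common, so the count of 8 is no test. For Gria2, B10 had a difference of -1.64 log2 against -0.28 in the next rat, and its slice 2 had -3.87 against -0.45 in the next slice. For Cacng2, the FR area of slice 3 of B9 stood at 9.16 log2 against 7.48 for the next FR array, and the rat mean of B9 at 7.43 against 6.59. The Grin1 rat mean of B9 was 11.09, with 10.49 in the next rat. For Grin2a, the FR area of B13 stood at 6.56 against 6.16, and its FR minus nonFR difference at 0.78 against 0.14. For Grin2c, the FR area of slice 1 of P91 stood at 9.81 against 8.24.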

How the results depend on the processing

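The count of features past the threshold between FR and nonFR areas was 0 under every alternative run, and so was that of members. The paired structure changed no call: the Gria2 difference was -0.13 with no replicate block and -0.21 with the slice as a replicate block. The sign of several differences did change. Gria3 was -0.0035 without background correction. Grin1 was 0.021 with median scaling, 0.0022 on rat means and 0.13 with array weights, which also gave 0.42 for Gria2 and -0.0025 for Grin2a. Gria2 was 0.0057 without the dimmest array and 0.21 without slice 2 of B10, an alternative chosen after seeing the data. Leaving out 1 rat at a time, the fitted differences ranged from -0.34 to 0.16 for Gria2, -0.079 to 0.099 for Gria3, -0.19 to 0.24 for Grin1 and -0.0033 to 0.14 for Grin2a. Over rat means they ranged from -0.35 to 0.072, -0.071 to 0.12 and -0.20 to 0.25 for the first 3. Cacng2 and Grin2c kept a positive and Grin2b a negative sign under every alternative run on them, and Grin2c was 0.059 with array weights. The causes were not tested.

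Between rats, 1072 features passed, against 2250 with median scaling, 2574 with array weights, 1753 without slice 2 of B10, and 164 (without B9) to 1693 (without B10) with 1 rat left out. Members that passed numbered 2 with median scaling, and 1 (Gria2) without background correction, with the authors' values, with detection on all arrays, with array weights, without the dimmest array, with an intensity trend and without slice 2 of B10, and 0 to 1 with 1 rat left out. The adjusted p of Gria2 in these ranged from 0.00731 with array weights to 0.251 without P91. Features past the threshold in the interaction numbered 2, against 0 without background correction, with detection on all arrays or in rats with 2 paired slices, 1 with median scaling, the authors' values or array weights, 5 without the dimmest array, 11 with an intensity trend, 15 without slice 2 of B10, 17 without the detection filter, and 0 to 3 with 1 rat left out. Dim signal limits Gria4, Grin2a, Grin2d and, in B10, Grin2b. The change of Gria2 relative to Gria1 was not run, since Gria1 had no probe.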
